A study of Mus musculus with 3 samples.

Results

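The 36 genes described here encode the enzymes and carriers that bring pyruvate into the tricarboxylic acid (TCA) cycle, turn the cycle, and carry reducing power between mitochondria and cytosol. They were chosen by name, as a pathway list, and the choice used no measured value. All 36 were found among the 31510 genes of the deposited tables, 26 by gene symbol and 10 by Ensembl identifier. Of the 36, 34 reached at least 1 RPKM (reads in exons relative to exon length and library size) in some library and 31 did so in every library. Pdk4 and Pdp1 stayed under 1 RPKM in all 3 libraries and are given by their values alone.

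The samples were blastocysts of CD-1 mice held in delayed implantation, in which the embryo waits in the uterus without growing. All mothers, aged 2 months, were ovariectomized on day 4 of pregnancy, and progesterone (2 mg per mouse) was given daily on days 5 to 7. Dormant blastocysts were flushed from the uterus on day 8, from mothers given no estradiol (E2). Reactivating and reactivated blastocysts came from mothers that received E2 on day 7 and were killed 6 h and 12 h later. Each state was a single library from a pool of more than 3000 embryos, so that no difference below has a replicate check, and state cannot be told apart from the day and hour of collection.

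Pyruvate crosses the inner mitochondrial membrane through a carrier made of MPC1 and MPC2, and the pyruvate dehydrogenase complex then turns it into acetyl-CoA. Kinases of the PDK family switch that complex off by phosphorylation, and the phosphatases PDP1 and PDP2 switch it on again. Acetyl-CoA enters the cycle at citrate synthase, and pairs of related enzymes in mitochondria and cytosol (such as IDH2 and IDH1, or MDH2 and MDH1), together with carriers, pass citrate, malate, 2-oxoglutarate and aspartate between the compartments. Mouse embryos before implantation are known to depend on pyruvate as a fuel at early stages and to take up more glucose as blastocysts.

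Libraries held 9298675 to 12941447 reads in exons and 3479754 to 3982790 in introns, and 3.81 to 4.83% of genic reads lay on the strand opposite to the gene. Of exon reads, mt-Rnr2, a ribosomal RNA of mitochondria, held 17.8% in the dormant library, 18.6% at 6 h and 24.3% at 12 h, and its part in the differences at 12 h was not tested. All 7 trophectoderm markers, all 6 of inner cell mass and epiblast and all 5 of primitive endoderm reached 1 RPKM, so that the libraries carried the defining genes of a blastocyst. Of markers for other cells, red cell genes summed to 0.50 to 0.66 RPKM with Hba-a1 and Hba-a2 at 0 reads, and uterine stroma genes to 5.19 to 7.50 RPKM with 2 of 6 at 1 RPKM or more. Uterine epithelium genes summed to 108, 102 and 60.0 RPKM in the dormant, 6 h and 12 h libraries (5 of 8 at 1 RPKM or more, most of the sum from Lif, Wfdc2 and Msx1), and immune genes to 18.5, 15.8 and 5.55 RPKM (4 of 6). Summed trophectoderm markers stood at 1210, 1191 and 937 RPKM, most of it Krt18. Within that list Cdx2 stood at 113, 95.8 and 34.8 RPKM and Elf5 at 30.1, 30.5 and 81.3. Markers of inner cell mass and epiblast summed to 160, 211 and 192 RPKM, most of it Pou5f1 (87.1, 125 and 124). From dormant to 12 h, Nanog (14.6 to 17.7) and Zfp42 (20.5 to 25.5) had higher values. Sox2 (13.95 to 13.49), Esrrb (15.6 to 7.7) and Klf4 (8.07 to 3.97) had lower ones. Summed primitive endoderm markers stood at 196, 211 and 97.7 RPKM, most of it Dab2 (138, 157 and 53.2 RPKM). Gata6 stood at 11.8, 9.64 and 7.47 RPKM and Sox17 at 11.4, 10.3 and 6.63. Gata4 stood at 23.2, 21.9 and 20.3, and Pdgfra at 12.1, 12.7 and 10.1. The part of any of these sums in the results below was not tested.

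The promoters of Pdk1 and Pdk2 are shown first, because these 2 kinase genes moved furthest apart. Each sequence runs 5′ to 3′ on the strand of the gene, from 250 bases before a RefSeq start of the gene to 50 bases from it on (RefSeq, GRCm38.p6). Position 0 is the base at that start. Both genes have 2 such windows, and the one nearest the start of the gene in GENCODE M21 is shown. Capitals mark 5-letter motifs, GCGTG in Pdk1 and, in Pdk2, ACGTG on both strands, whose matches overlap as CACGTG. The Pdk1 window lies at chr2:71872974-71873273 on the plus strand and the Pdk2 window at chr11:95041322-95041621 on the minus strand.
Pdk1: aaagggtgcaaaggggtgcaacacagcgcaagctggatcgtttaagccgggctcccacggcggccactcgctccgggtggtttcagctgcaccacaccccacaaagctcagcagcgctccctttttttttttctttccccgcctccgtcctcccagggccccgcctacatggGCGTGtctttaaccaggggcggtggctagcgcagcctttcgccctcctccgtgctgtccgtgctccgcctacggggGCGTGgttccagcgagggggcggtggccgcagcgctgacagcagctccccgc
Pdk2: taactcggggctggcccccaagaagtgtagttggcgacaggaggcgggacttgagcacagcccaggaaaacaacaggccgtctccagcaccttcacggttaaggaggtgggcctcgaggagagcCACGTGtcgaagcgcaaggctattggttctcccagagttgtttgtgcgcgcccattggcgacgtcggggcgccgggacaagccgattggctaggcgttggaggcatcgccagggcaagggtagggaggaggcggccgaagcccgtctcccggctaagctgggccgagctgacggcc
In Pdk1 the motif GCGTG occurred at positions -78 to -74 and -2 to 2, and ACGTG did not occur. In Pdk2 the matches to ACGTG covered positions -126 to -121, and GCGTG did not occur. Both motifs were searched on both strands, and they are common letters in such windows. ACGTG lay in 19.6% of all 32851 RefSeq windows of this length, GCGTG in 32.4% and at least 1 of them in 43.8%. Among the 33 genes of the pathway list with a window, 25 held at least 1 of them. For these genes only the window nearest the M21 start was searched, 7 of them having several, while the shares over all windows count every window. That window could lie far from the M21 start, as in Sucla2 (27467 bases) and Mpc1 (883 bases). The windows of the 33 genes had 47.0 to 81.0% G and C, against a median of 52.7% over all windows. The motif AAGGTCA, which estrogen-related receptors bind, lay in 4.72% of all windows and in 1 of the 33, that of Got1.

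A gene was called higher or lower when its RPKM + 1 differed at least 2 times between libraries (log2 difference 1 or more, or -1 or less) and the higher value was at least 1 RPKM. At 6 h no gene of the 34 passed that rule against the dormant library, where 2.68% of all genes tested were called higher and 3.07% lower. At 12 h 1 gene of 34 rose against the dormant library, Pdk1, and 1 fell, Pdk2 (all genes 5.27% and 7.66%). Between 6 h and 12 h Pdk1 rose and Pcx fell (all genes 3.82% and 7.63%). The genes of the list all code for proteins, and protein-coding genes alone were called less often. Of them, 68 were higher and 29 lower of 9960 tested at 6 h. At 12 h against dormant 361 were higher and 550 lower of 9948, and from 6 h to 12 h 243 and 659 of 9979. The pathway had called shares at or below those of all genes. Beside protein-coding genes, 0 or 1 called gene of 34 is too few to rank its shares. Most of its values differed by less than 2 times. The 3 comparisons share libraries and are not independent of each other.

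Smaller differences were counted as well. With a limit of 1.5 times, 12 of the 34 genes were higher and 4 lower at 12 h than in the dormant library, where 14.2% and 20.3% of all genes were. At 6 h, 1 gene (Got2) was higher and 1 (Pdk2) lower by 1.5 times, against 7.89% and 6.58% of all genes. Of 9960 protein-coding genes tested there, 462 were higher and 239 lower by that limit. From 6 h to 12 h these counts were 5 higher and 3 lower, against 11.5% and 21.1%. Counting instead the genes whose exact 95% Poisson intervals, which cover the counting error of the reads, lay apart, 12 of 34 were higher and 4 lower at 6 h (all genes 19.1% and 10.7%), 17 and 8 at 12 h (24.5% and 31.6%), and 16 and 8 from 6 h to 12 h (21.1% and 34.5%). Intervals lie apart more readily in genes with more reads, and these shares of all genes were not matched for level. The median log2 difference of the 34 genes was 0.12 at 6 h and 0.21 at 12 h against the dormant library, beside 0.06 and -0.07 over all genes, and 0.11 between 6 h and 12 h, beside -0.13. With TMM, median-of-ratios and upper-quartile scaling the 6 h median of the 34 genes was 0.04, 0.05 and 0.05. Over all genes it was -0.01, 0.00 and -0.01 with these scalings. Of the 34 genes, 23 (67.6%) had a positive difference at 12 h against the dormant library, where 45.1% of all genes did.

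**Figure D1:**
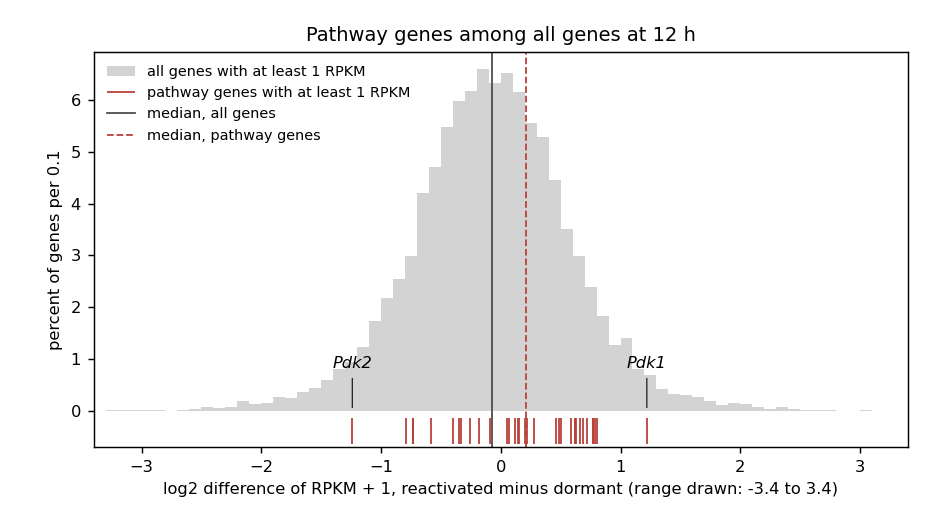
Grey bars give the percent of all genes with at least 1 RPKM in the dormant or reactivated library per 0.1 of log2 difference of RPKM + 1 (reactivated minus dormant), and red ticks give the 34 pathway genes that passed the same limit. The pathway median (0.21, dashed) lies to the right of the median of all genes (-0.07, solid), and only Pdk1 and Pdk2 lie past 1 or -1.

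The genes are taken below by role, beginning with the control of pyruvate entry. The Poisson interval of each level is given in parentheses. It covers counting error only, and with 1 library per state the variation between pools was not measured. Reads without molecular identifiers can also be copies of each other, which the interval does not allow for. In a pool of whole embryos, fewer cells of a type and less RNA per cell cannot be told apart for any value that follows.

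**Figure D2:**
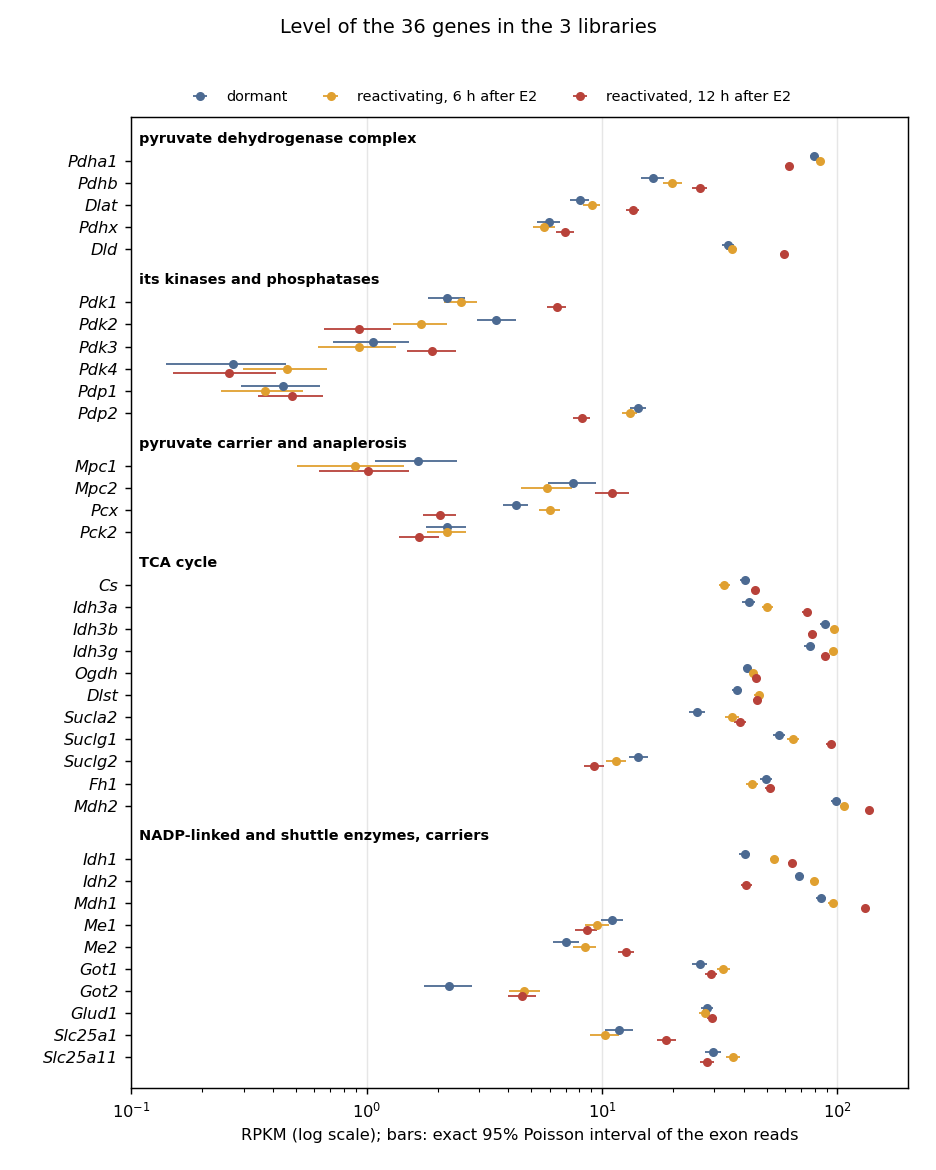
RPKM of each of the 36 genes (log scale) in the dormant (blue), reactivating (6 h, yellow) and reactivated (12 h, red) libraries, with exact 95% Poisson intervals of the exon reads as bars and genes grouped by role. Pdk1 at 12 h (6.42) and Pdk2 at 12 h (0.93) lie away from their dormant values, while Ogdh (41.1 to 44.9) and Glud1 (27.3 to 29.4) lie close together in the 3 libraries.

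Among the kinases that inactivate pyruvate dehydrogenase, Pdk1 rose and Pdk2 fell. Pdk1 (chr2:71873224-71903858, plus strand, GENCODE M21 on GRCm38) stood at 2.19 RPKM in dormant blastocysts (1.82 to 2.61, 122 reads), 2.52 at 6 h (2.14 to 2.94, 156 reads) and 6.42 at 12 h (5.86 to 7.02, 482 reads). The dormant and 6 h intervals overlapped, and the 12 h value lay above both, with a log2 difference of 1.22 from dormant and a ratio of 2.94 (exact binomial interval 2.40 to 3.61). From 6 h to 12 h the log2 difference was 1.08. Pdk2 (chr11:95026258-95041354, minus strand) stood at 3.56 RPKM (2.93 to 4.29, 111 reads), 1.70 (1.30 to 2.20, 59 reads) and 0.93 (0.662 to 1.27, 39 reads). Its 3 intervals did not overlap from one library to the next, and at 12 h it had fallen by 1.24 on the log2 scale, a level 0.261 times the dormant one (0.177 to 0.380). At 6 h its log2 difference from dormant was -0.76, short of the limit.

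The other members of the kinase family were scarce. Pdk3 stood at 1.06 RPKM (0.718 to 1.52), 0.93 (0.620 to 1.33) and 1.90 (1.49 to 2.39), from 29 to 72 reads. Its 12 h interval lay above that of 6 h but met that of the dormant library. Pdk4, the isoform known for induction by fasting and fatty acids, had 13, 25 and 17 reads (0.27, 0.46 and 0.26 RPKM), with overlapping intervals.

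Within each library the balance of the kinases can be read without any scaling between libraries. Pdk1 had 0.615 times the RPKM of Pdk2 in the dormant library, 1.48 times at 6 h and 6.90 times at 12 h. The intervals of these ratios (0.470 to 0.800, 1.09 to 2.03 and 4.97 to 9.82) did not overlap, and the order of the 2 genes turned between the dormant library and 6 h. Of the summed RPKM of the 4 kinases, Pdk2 made up 50.3%, 30.3% and 9.78%, and Pdk1 30.9%, 44.9% and 67.5%. The sum itself was 7.08 RPKM in dormant blastocysts, 5.61 at 6 h and 9.51 at 12 h, so that the largest share passed from Pdk2 to Pdk1 with a smaller difference in the total.

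Of the opposing phosphatases, Pdp2 was by far the more abundant. It stood at 14.2 RPKM (13.2 to 15.3), 13.1 (12.1 to 14.1) and 8.18 (7.50 to 8.90), and the 12 h interval lay below the other two. Its log2 difference at 12 h from dormant was -0.73, past the limit of 1.5 times only. Pdp1 had 28, 26 and 41 reads (0.44, 0.37 and 0.48 RPKM) and none across an exon junction in any library. The ratio of Pdp2 to Pdp1 was 32.4 (22.2 to 49.1), 35.4 (24.1 to 54.8) and 17.0 (12.4 to 24.1), so that the dormant and 12 h intervals overlapped slightly. Pdpr, the regulatory subunit of the phosphatase, which was not among the 36 genes, stood at 9.17, 7.56 and 6.91 RPKM.

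**Figure D3:**
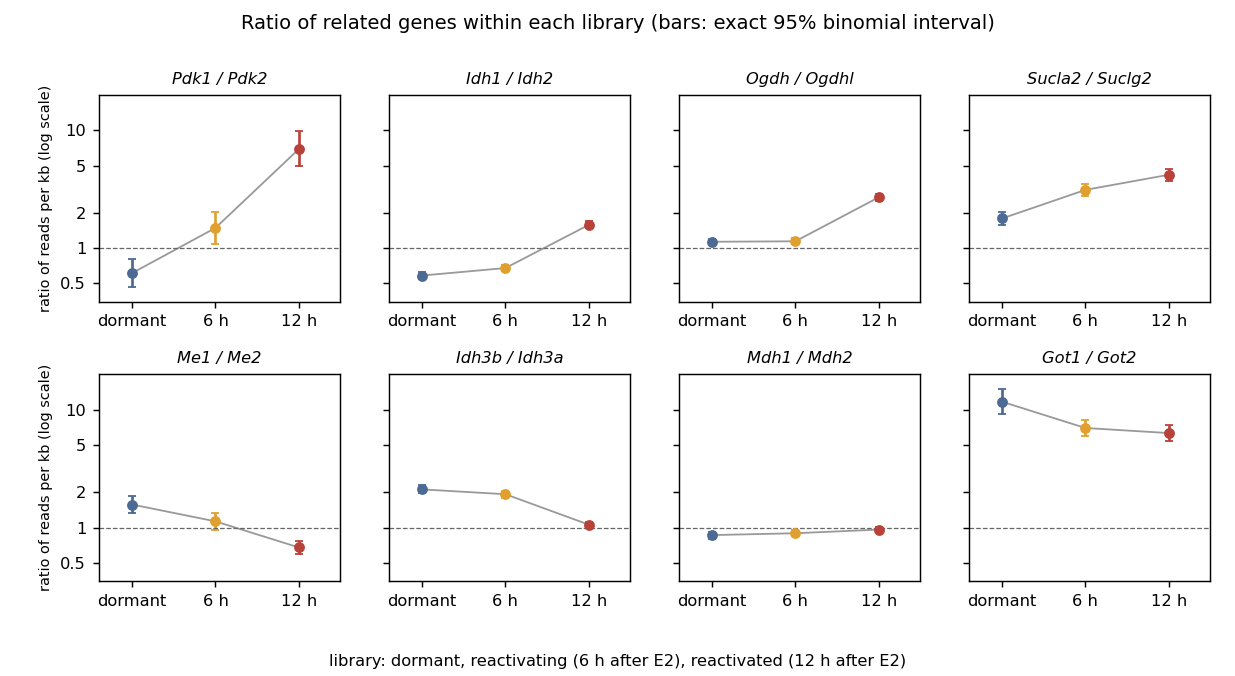
Ratio of exon reads per kilobase of related genes within each library (log scale, same axis in all 8 panels), with exact 95% binomial intervals as bars and a dashed line at 1. The ratios of Pdk1 to Pdk2, Idh1 to Idh2 and Me1 to Me2 lie on different sides of 1 in the dormant and 12 h libraries, and that of Mdh1 to Mdh2 stays between 0.864 and 0.962.

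The pyruvate dehydrogenase complex itself showed no called gene, and its subunits differed in direction. Pdha1, the X-linked E1 alpha subunit that the kinases phosphorylate, was the most abundant of them, at 79.5 RPKM (76.7 to 82.3), 83.9 (81.2 to 86.7) and 62.1 (60.0 to 64.3). Its value at 12 h was the lowest of the 3 (log2 difference from dormant -0.35), with an interval below the other two. Pdhb, the E1 beta subunit, stood at 16.4 (14.7 to 18.3), 19.9 (18.1 to 21.8) and 26.1 RPKM (24.2 to 28.0), a log2 difference of 0.63 at 12 h. A copy of Pdhb elsewhere in the genome matched its transcript at 95% identity or more over at least 300 bases, so that its level is uncertain. Dlat, the E2 core, stood at 8.03 (7.31 to 8.80), 9.06 (8.33 to 9.83) and 13.5 RPKM (12.7 to 14.4), a log2 difference of 0.69.

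Dld, the E3 subunit that several dehydrogenase complexes share, stood at 34.3 (32.3 to 36.5), 35.6 (33.6 to 37.6) and 59.1 RPKM (56.8 to 61.5). Its dormant and 6 h intervals overlapped, and its log2 difference was 0.77 at 12 h from dormant and 0.72 from 6 h. Pdhx, which anchors E3 to the core, stood at 5.94, 5.67 and 6.98 RPKM, with a dormant interval (5.31 to 6.61) that met that of 12 h (6.39 to 7.60). At 12 h the complex therefore had 3 subunits higher by 1.5 times (Pdhb, Dlat and Dld), 1 with a lower value and intervals apart (Pdha1) and 1 with overlapping intervals (Pdhx). Pdha1 shares 603 exon bases with Map3k15 on the opposite strand, and the tables hold opposite-strand reads in a column of their own, with 9 to 15 such reads for Pdha1.

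**Figure D4:**
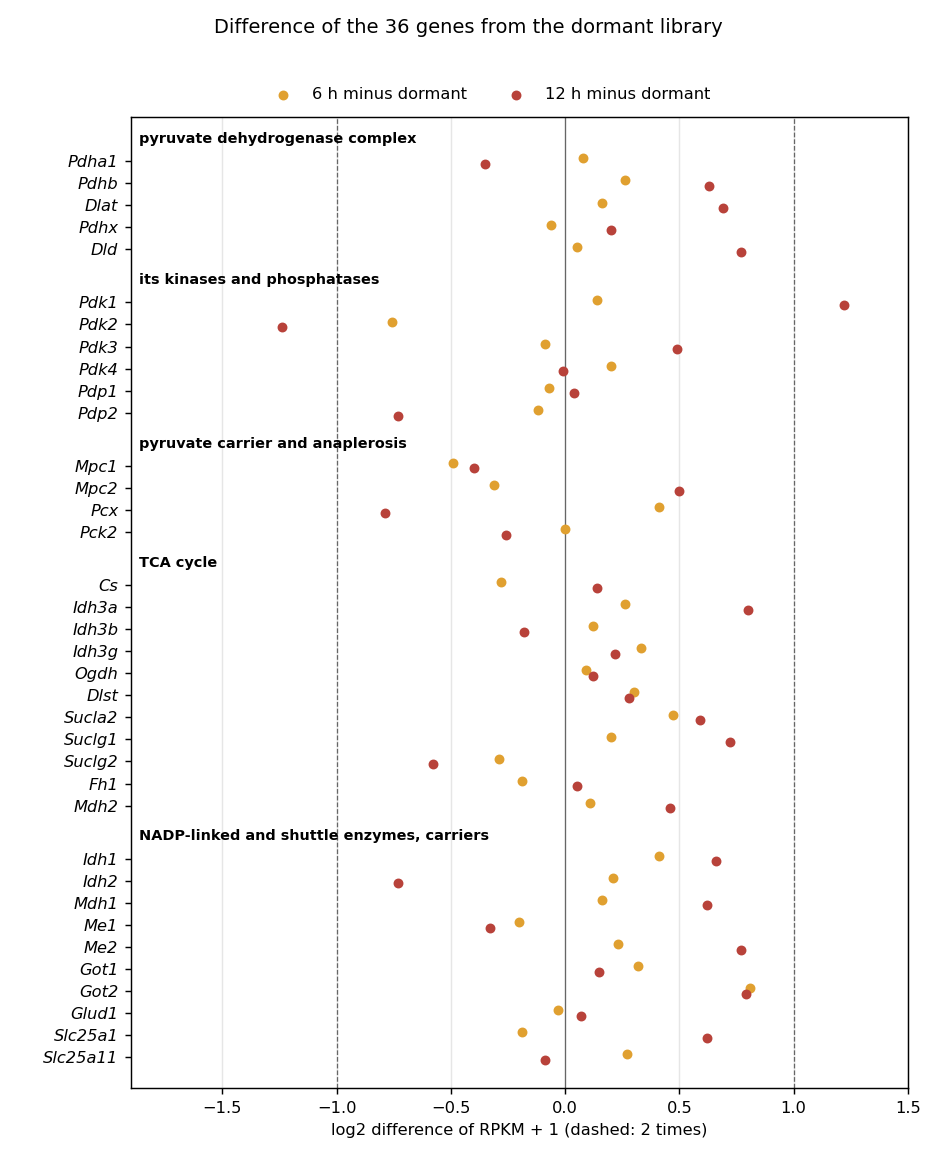
Log2 difference of RPKM + 1 from the dormant library for the 36 genes at 6 h (yellow) and 12 h (red), grouped by role, with dashed lines at 2 times. At 12 h Pdk1 (1.22) and Pdk2 (-1.24) lie past the dashed lines, and no gene does at 6 h.

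Of the mitochondrial pyruvate carrier and the enzymes that refill the cycle, Mpc2 had the highest level at 12 h and in the dormant library. Mpc2 stood at 7.51 RPKM (5.91 to 9.42), 5.86 (4.52 to 7.47) and 11.0 (9.32 to 13.0), from 65 to 148 reads. The 12 h interval lay above that of 6 h and just met that of the dormant library. Mpc1 had 27, 16 and 22 exon reads (1.66, 0.89 and 1.01 RPKM), of which 1, 0 and 0 crossed an exon junction, beside 111, 146 and 99 reads in introns. With so few spliced reads its level as messenger RNA was hardly measured, and a difference between its libraries was not detectable at this depth. The gene also shares 480 exon bases with 4930506C21Rik on the other strand.

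Pcx, which encodes pyruvate carboxylase and makes oxaloacetate from pyruvate, had its highest value at 6 h. It stood at 4.29 RPKM in dormant blastocysts (3.78 to 4.86, 251 reads), 6.01 at 6 h (5.42 to 6.63, 390 reads) and 2.05 at 12 h (1.74 to 2.39, 161 reads), and none of the 3 intervals overlapped. From 6 h to 12 h it fell by 1.20 on the log2 scale, to 0.341 times its level (0.282 to 0.411). Against dormant the log2 difference of RPKM + 1 was 0.41 at 6 h and -0.79 at 12 h, neither past the limit, although its plain ratio at 12 h was 0.477 (0.389 to 0.584). It was called lower there with a pseudocount of 0.1 and with CPM. Pcx (chr19:4510472-4621752, plus strand) spans Lrfn4 on the opposite strand, with which it shares 0 exon bases, and had 127, 149 and 151 opposite-strand reads. Its intron reads numbered 91, 130 and 119, a log2 difference of -0.42 from 6 h to 12 h relative to all exon and intron reads. Pck2, the mitochondrial enzyme that makes phosphoenolpyruvate from oxaloacetate, stood at 2.19, 2.19 and 1.67 RPKM, with overlapping intervals.

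Most genes of the cycle proper were abundant and none was called. Citrate synthase (Cs) stood at 40.3 RPKM (38.4 to 42.3), 33.1 (31.4 to 34.8) and 44.7 (43.0 to 46.5), lowest at 6 h with intervals apart. Fh1, the fumarase, had the same order of values, 49.7, 43.4 and 51.6 RPKM. Mdh2, mitochondrial malate dehydrogenase, was the most abundant of the 36 genes in each library, at 98.6 (94.1 to 103), 107 (102 to 111) and 136 RPKM (132 to 141). Its log2 difference at 12 h from dormant was 0.46, and its 12 h interval met that of Mdh1.

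The NAD-dependent isocitrate dehydrogenase, a main control point of the cycle, is built from 3 kinds of subunit, and their balance differed between libraries. Idh3a, the catalytic alpha subunit, stood at 41.9 RPKM (39.4 to 44.6), 50.4 (47.7 to 53.1) and 73.9 (70.9 to 76.9), higher in each later library with no overlap and with a log2 difference of 0.80 at 12 h. Idh3b, the beta subunit, stood at 88.6 (84.6 to 92.7), 96.6 (92.6 to 101) and 78.2 RPKM (75.0 to 81.5). Idh3g, the gamma subunit, stood at 76.2 (72.3 to 80.4), 95.8 (91.6 to 100) and 88.8 RPKM (85.1 to 92.6). The ratio of Idh3b to Idh3a was 2.11 (1.96 to 2.28), 1.92 (1.79 to 2.05) and 1.06 (0.998 to 1.12), and that of Idh3g to Idh3a 1.82, 1.90 and 1.20. In the dormant library the beta and gamma messages thus outnumbered the alpha message per kilobase, and at 12 h the 3 lay closer together.

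The 2-oxoglutarate dehydrogenase complex showed small differences in Ogdh and Dlst. Ogdh, its E1 subunit, stood at 41.1 (39.5 to 42.7), 43.7 (42.2 to 45.3) and 44.9 RPKM (43.5 to 46.4). Dlst, its E2 core, stood at 37.4 (35.5 to 39.3), 46.3 (44.3 to 48.4) and 45.5 RPKM (43.7 to 47.4), so that the dormant interval lay below the other two. The shared E3 subunit, Dld, described above, had a log2 difference of 0.77 at 12 h from dormant. Ogdhl, a relative of Ogdh from the wider pathway list, stood at 36.4 (34.8 to 38.2), 38.3 (36.6 to 40.0) and 16.7 RPKM (15.7 to 17.7) and fell by 1.08 on the log2 scale from dormant to 12 h. Its call was lost with median-of-ratios and upper-quartile scaling. The ratio of Ogdh to Ogdhl, which no scaling touches, was 1.13 (1.06 to 1.20), 1.14 (1.08 to 1.21) and 2.69 (2.52 to 2.88). In dormant and 6 h blastocysts the E1 message was nearly evenly divided between the genes, and at 12 h Ogdh made up 72.9% of their summed RPKM.

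Succinyl-CoA synthetase pairs an alpha subunit, Suclg1, with either an ATP-forming (Sucla2) or a GTP-forming (Suclg2) beta subunit. Suclg1 stood at 56.5 (53.0 to 60.1), 64.8 (61.3 to 68.5) and 93.5 RPKM (89.6 to 97.5), a log2 difference of 0.72 at 12 h. Sucla2 stood at 25.3 (23.3 to 27.5), 35.6 (33.3 to 38.0) and 38.7 RPKM (36.5 to 41.0), with a log2 difference of 0.47 already at 6 h. Suclg2 had the opposite order, at 14.3 (13.0 to 15.6), 11.4 (10.4 to 12.6) and 9.25 RPKM (8.36 to 10.2), a log2 difference of -0.58 at 12 h. The ratio of Sucla2 to Suclg2 was 1.78 (1.57 to 2.01), 3.10 (2.76 to 3.50) and 4.18 (3.73 to 4.70), without overlap. A near-identical copy of Suclg2 exists elsewhere in the genome, so that its level is uncertain.

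Of the NADP-linked isocitrate dehydrogenases, the gene for the mitochondrial enzyme had the higher level in dormant and 6 h blastocysts and the gene for the cytosolic one at 12 h. Idh1 (cytosol, chr1:65158616-65186500, minus strand) stood at 40.3 RPKM (38.1 to 42.6), 54.0 (51.6 to 56.5) and 64.3 (61.9 to 66.8), with log2 differences from dormant of 0.41 and 0.66. Idh2 (mitochondria, chr7:80094846-80115392, minus strand) stood at 69.0 (65.7 to 72.4), 79.9 (76.5 to 83.3) and 41.1 RPKM (38.9 to 43.3). Its log2 difference was -0.73 at 12 h from dormant and -0.94 from 6 h, just short of the limit. The ratio of Idh1 to Idh2 was 0.584 (0.542 to 0.629), 0.676 (0.635 to 0.720) and 1.57 (1.47 to 1.68). Their summed RPKM was 109 in dormant blastocysts, 134 at 6 h and 105 at 12 h, of which Idh1 made up 36.9%, 40.3% and 61.0%.

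Malic enzymes, which make pyruvate from malate, also crossed in order. Me1, the cytosolic NADP-linked enzyme, stood at 11.1 (9.89 to 12.3), 9.53 (8.50 to 10.7) and 8.59 RPKM (7.69 to 9.55), with near-identical copies elsewhere in the genome. Me2, a mitochondrial one, stood at 7.03 (6.18 to 7.96), 8.44 (7.56 to 9.40) and 12.7 RPKM (11.7 to 13.7), a log2 difference of 0.77 at 12 h. The ratio of Me1 to Me2 was 1.57 (1.33 to 1.86), 1.13 (0.963 to 1.32) and 0.679 (0.592 to 0.777). Me3, the other mitochondrial form, had 0.21 RPKM at 6 h and was listed at 0 in the other libraries.

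The malate-aspartate shuttle, which carries electrons of cytosolic NADH into mitochondria, had genes of very unequal level. Mdh1, cytosolic malate dehydrogenase, stood at 85.2 (81.0 to 89.5), 95.5 (91.3 to 99.9) and 131 RPKM (127 to 136), a log2 difference of 0.62 at 12 h. Mdh1 and Mdh2 kept nearly the same ratio, 0.864 (0.806 to 0.925), 0.896 (0.842 to 0.953) and 0.962 (0.916 to 1.01), so that neighbouring libraries overlapped. Got1, the cytosolic aspartate aminotransferase, stood at 26.1 (24.2 to 28.0), 32.8 (30.8 to 34.9) and 29.0 RPKM (27.3 to 30.8).

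Got2, the mitochondrial aminotransferase, was far lower than Got1 in each library. It stood at 2.23 RPKM in dormant blastocysts (1.75 to 2.80, 75 reads), 4.68 at 6 h (4.02 to 5.43, 175 reads) and 4.58 at 12 h (3.98 to 5.25, 207 reads). The dormant interval lay below the other two, with log2 differences of 0.81 and 0.79, and its read ratio at 6 h to dormant was 2.10 (1.59 to 2.79). With 0.1 in place of 1 RPKM added to each value, it passed the limit of 2 times in both. There are 2 near-identical copies of Got2 in the annotation, and its exons share 434 bases with Gm45760 on the other strand, so that its level is uncertain. The ratio of Got1 to Got2 was 11.7 (9.20 to 15.0), 7.00 (5.95 to 8.26) and 6.34 (5.46 to 7.39).

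The remaining listed genes were Glud1, which links glutamate to 2-oxoglutarate, and 2 carriers. Glud1 stood at 28.0, 27.3 and 29.4 RPKM, with overlapping intervals and with a near-identical copy elsewhere. Slc25a1, which exports citrate for cytosolic acetyl-CoA, stood at 11.8 (10.3 to 13.5), 10.3 (8.92 to 11.8) and 18.8 RPKM (17.1 to 20.6). Its log2 difference at 12 h was 0.62 from dormant and 0.81 from 6 h. Slc25a11, the 2-oxoglutarate and malate carrier, stood at 29.7 (27.5 to 32.0), 35.99 (33.7 to 38.4) and 27.9 RPKM (26.1 to 29.9), highest at 6 h. Their ratio, Slc25a11 to Slc25a1, was 2.51 (2.15 to 2.94), 3.50 (3.01 to 4.10) and 1.49 (1.33 to 1.67).

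The order of values over the 3 libraries split the 34 genes with at least 1 RPKM into patterns. In 12 genes each later library had the higher value (Pdhb, Dlat, Dld, Pdk1, Idh1, Idh3a, Ogdh, Sucla2, Suclg1, Mdh1, Mdh2 and Me2), an order that 19.6% of all genes with at least 1 RPKM showed. In 4 genes each later library had the lower value (Pdk2, Pdp2, Suclg2 and Me1), beside 20.1% of all genes. A highest value at 6 h was found in 9 genes (37.8% of all genes) and a lowest at 6 h in 8 (21.3%), with Pck2 tied. Scaling bears on such orders: under at least 1 of the other settings for scaling or unit the sign from 6 h to 12 h turned for Idh3g, Ogdh, Dlst, Me1, Got1 and Got2, and the sign from dormant to 6 h for Pdha1, Dld and Pck2. Summed over the 36 genes the level was 1062 RPKM in dormant blastocysts, 1174 at 6 h and 1275 at 12 h. The 11 genes of the cycle made up most of it, with 570, 628 and 706 RPKM.

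Intron reads gave a second readout of the same libraries, as reads of RNA that has not been spliced. Mpc2, Cs, Idh2, Mdh1 and Me1 each overlap another gene on the same strand with 0 shared exon bases (Gm37860, Gm23182, Gm45203, Gm22990 and Gm38230). Reads of those genes could also count as intron reads, and their part was not tested. Intron reads were taken relative to all exon and intron reads of the library, for the 34 genes with at least 20 intron reads in a pair of libraries. The median log2 difference of introns was 0.03 at 6 h and -0.02 at 12 h against dormant, beside 0.00 and -0.17 over all genes, and -0.22 from 6 h to 12 h, beside -0.19. At 12 h against dormant, 25 of the 34 genes had an intron difference of the same sign as their exon difference, beside 66.1% of all genes. At 6 h against dormant 22 of 34 did (53.2% of all genes), and from 6 h to 12 h also 22 of 34 (69.4%).

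For both kinases the intron difference had the sign of the exon difference. Pdk1 had 44, 50 and 107 intron reads, a log2 difference of 0.89 at 12 h from dormant (ratio interval 1.29 to 2.69). Pdk2 had 43, 26 and 22, a log2 difference of -1.36 (ratio interval 0.221 to 0.664). Suclg2 and Me1 carried most of their reads in introns, 83.0% and 74.1% of exon and intron reads in the dormant library. Such a share also depends on the length of the introns and was not corrected for it, so it is not the share of unspliced transcripts. Suclg2 spans chr6:95473009-95718800 with 2239 exon bases, and Me1 spans chr9:86581371-86695953 with 2074. Their intron reads numbered 2200, 1800 and 1330 for Suclg2 and 926, 805 and 591 for Me1, log2 differences of -1.12 and -1.04 at 12 h, larger in size than their exon differences of -0.58 and -0.33.

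Other genes had exon and intron reads that did not move alike. Idh3a had 195, 231 and 281 intron reads, a log2 difference of 0.13 at 12 h beside 0.80 in exons, and Suclg1 had -0.19 beside 0.72. Idh1 had -0.07 in introns beside 0.66 in exons. Glud1 had 366, 363 and 286 intron reads, a log2 difference of -0.75 beside 0.07 in exons. Slc25a1, with the fewest intron reads of those named, had 10, 33 and 41, and its interval was wide (ratio 1.53 to 6.97 at 12 h from dormant).

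**Figure D5:**
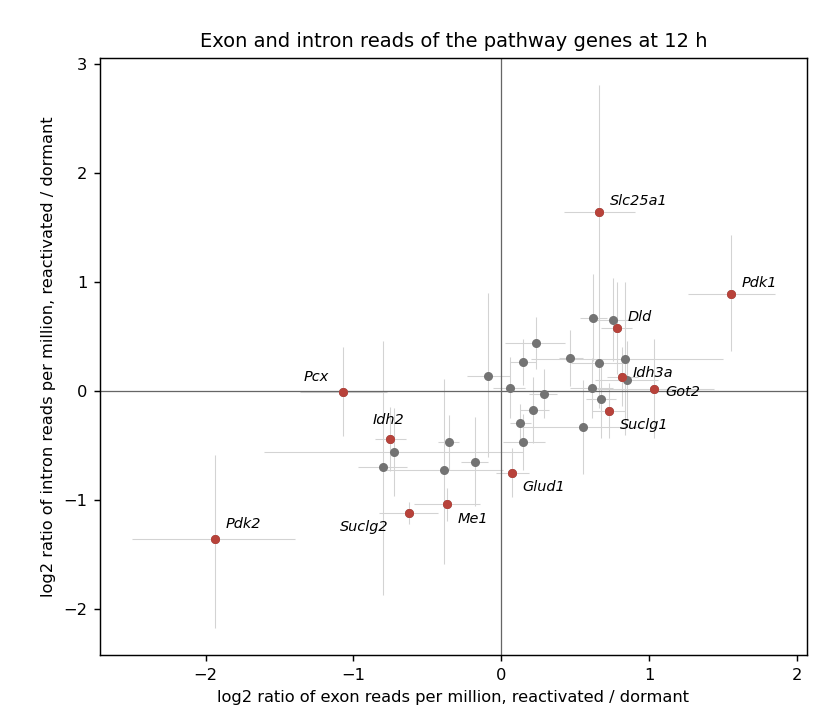
Log2 ratio of exon reads (horizontal, relative to the read total behind RPKM) and of intron reads (vertical, relative to all exon and intron reads) at 12 h over dormant for 34 of the 36 genes, with exact 95% binomial intervals as thin bars. Named genes are in red. Pdk1 lies in the upper right and Pdk2 in the lower left, and Idh3a (0.13) and Got2 (0.02) lie near 0 on the intron axis.

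A wider list of 41 genes of the same pathway (cycle enzymes, carriers, cofactor synthesis, lactate dehydrogenases and regulators) was read in the same way, and 33 of them reached 1 RPKM in some library. At 6 h none of 32 tested was called. At 12 h against dormant 1 of 33 rose, Ldha, and 2 fell, Ogdhl and Nnt, beside 5.27% and 7.66% of all genes. The call of Ogdhl was lost with median-of-ratios and upper-quartile scaling, as given above. Their median log2 difference was -0.06, beside -0.07 over all genes. Ldha, the lactate dehydrogenase that competes for pyruvate, stood at 3.55 RPKM (2.89 to 4.32), 3.20 (2.60 to 3.89) and 24.6 (23.0 to 26.2), a log2 difference of 2.49, with near-identical copies elsewhere. Nnt, which makes mitochondrial NADPH from NADH, stood at 6.96 (6.42 to 7.53), 6.59 (6.09 to 7.11) and 2.40 RPKM (2.13 to 2.69) and fell by 1.23 on the log2 scale.

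From 6 h to 12 h, 1 of 33 of the wider list rose (Ldha) and 4 fell, beside 3.82% and 7.63% of all genes. These were Ogdhl (-1.15), Nnt (-1.16), Sirt3 (-1.02), a mitochondrial deacetylase, and Esrrb (-1.06), an orphan nuclear receptor. Sirt3 and Esrrb lost their calls with TMM, median-of-ratios and upper-quartile scaling, and Ogdhl with upper-quartile scaling. Succinate dehydrogenase, which belongs to both the cycle and the respiratory chain, showed no called subunit. Among its subunits, Sdha stood at 86.8, 82.6 and 88.5 RPKM, Sdhb at 70.8, 103 and 86.4, Sdhc at 32.0, 31.0 and 26.2, and Sdhd at 32.0, 37.2 and 35.7. Acly, which splits the citrate that Slc25a1 exports, stood at 41.7, 42.2 and 72.3 RPKM, with a log2 difference of 0.78 at 12 h from dormant, short of the limit.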

How the data were processed

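Ribosome-depleted total RNA was sequenced as 50 bp single-end SOLiD reads, per the labels' protocols. The authors deposited 1 table per library with counts of reads in exons, in introns, across junctions and on the opposite strand, per the file headers, and an RPKM per gene, per the file headers, which the authors computed. Those RPKM values followed from exon counts and exon lengths with totals of 14118723, 15687239 and 18982195 reads. The build is GRCm38, per the submitters' processing notes. For the aligner, the counter and the annotation a name is not given in the sources used here.

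Differences are log2((RPKM + 1)/(RPKM + 1)), a scale on which low genes differ by less than their ratio. As each state has 1 library, neither an SD nor a p-value is given. Calls needed a difference of 2 times and 1 RPKM or more in the higher library, and the same rule was run on all genes for the background. Intervals are exact, at 95%. Coordinates and overlaps come from GENCODE M21, and near-identical copies from blastn 2.17.0 (at least 95% identity over 300 bases). Python 3.11.15 with pandas 2.3.3 and scipy 1.17.1 was used, with scaling factors from edgeR 4.0.16 and DESeq2 1.42.0 as alternatives. The calling and intervals were run on counts simulated with Poisson error only, the error that the intervals assume. That run checks the computation and not the fit of the intervals to these libraries. The naming rule took all 36 genes, and of the wider list those called or completing an enzyme of theirs, while Pdpr, Me3, Acly and the succinate dehydrogenase subunits were added after their values were seen. The genes, lists and rules were chosen with earlier results of these data known.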

Additional observations from a re-analysis of the deposited data

How the results depend on the processing

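Settings were changed one at a time, except that CPM came with its own minimum of 20 reads. With a pseudocount of 0.1, 1 gene was higher (Got2) and 1 lower (Pdk2) at 6 h against dormant, and 2 were higher (Pdk1 and Got2) and 2 lower (Pdk2 and Pcx) at 12 h. CPM with at least 20 reads also gave 2 lower at 12 h against dormant (Pdk2 and Pcx), and a minimum of 5 RPKM gave 0, since Pdk2 stays below it. A limit of 1.5 times gave 1 higher and 1 lower at 6 h, 12 higher and 4 lower at 12 h against dormant, and 5 higher and 3 lower from 6 h to 12 h. The median of the pathway genes at 12 h against dormant was 0.32 with upper-quartile scaling. From 6 h to 12 h it was 0.25 at a minimum of 5 RPKM, 0.26 with TMM, 0.26 with median-of-ratios and 0.30 with upper-quartile scaling. In the latter comparison the median of all genes moved from -0.13 to 0.01, 0.01 and 0.04 with these scalings, and the share of higher genes among all called ones from 33.4% to 49.1, 49.6 and 52.7% (CPM 25.1%). At 12 h against dormant that share moved from 40.7% to 47.7, 49.5 and 51.9% (CPM 31.5%). Pdk1 kept its call in 8 of 8 settings at 12 h, against dormant (1.22 to 1.51) and against 6 h (1.08 to 1.32), and Pcx from 6 h to 12 h in 8 of 8 (-1.52 to -1.06). Pdk2 kept its call at 12 h in 7 of 8 (-1.83 to -1.18). Of these settings, the lower pseudocount and no minimum level could not remove a call. Asking for Poisson intervals apart repeated a difference given above, so that fewer than 8 settings put these calls to a test. No result of the pathway list with a call changed sign in these settings. Signs of small differences did turn, at 6 h against dormant for Pdha1, Dld and Pck2 and at 12 h against dormant for Pdk4, Fh1 and Slc25a11. The cause was not tested. Depth limits Mpc1, Pdk3, Pdk4 and Pdp1, with 13 to 72 exon reads per library. The call of Pdk2 also rests on few reads, 111 in the dormant library, 59 at 6 h and 39 at 12 h. Mpc2 had 75, 65 and 148. No paired analysis was possible because each state has 1 library.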
